A study of Homo sapiens with 6 samples.

Results

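The ERBB receptor tyrosine kinases, their ligands and the inhibitor ERRFI1 were followed as a group of 9 genes chosen by name: the receptors EGFR, ERBB2 and ERBB3, the ligands AREG, EREG, HBEGF, TGFA and NRG1, and ERRFI1. The choice went by gene name and not by a threshold on a measured value, though it was made with earlier results of these data known. They were 9 of the 58288 gene identifiers in the count table, and all 9 passed the filter on low counts that left 14415 genes for testing. The libraries were made from T24, a human bladder cancer cell line that carries an activating HRAS mutation and so holds a RAS signal that does not need a receptor. Cells received a control siRNA (siControl), siRNA1 or siRNA2, with 2 libraries per group and 6 in all. Both siRNAs were designed against the looping site of circ_0000235 (circ235), a circular RNA that the study tested as a sponge for miR-330-5p, and the sequencing asked which mRNAs changed after circ235 was knocked down. RNA was enriched on oligo dT beads, which do not select a circular RNA without a poly(A) tail, so knockdown of circ235 itself could not be read from these libraries. All groups shared the same line, the same transfected state and no further treatment given in the labels. Both siRNA groups were compared with the same siControl libraries.

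ERBB receptors sit in the plasma membrane and signal as pairs. EGFR and ERBB2 are active kinases, ERBB2 has no known ligand of its own, and ERBB3 has little kinase activity and signals through its partners, mostly ERBB2. AREG, EREG, HBEGF and TGFA are made as membrane-anchored precursors, are cut free by ADAM proteases and bind EGFR, with EREG and HBEGF also binding ERBB4, while NRG1 binds ERBB3 and ERBB4. ERRFI1 (also called MIG6) binds the active EGFR kinase and blocks it, and its own mRNA is induced by ERK signalling, which makes it a feedback inhibitor. In the urothelium, EGFR and its ligands take part in repair after injury, and EGFR, ERBB2 and ERBB3 are studied as drug targets in bladder cancer.

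Because the study proposed that circ235 holds back miR-330-5p, the members' 3′ UTRs were read for the word complementary to the seed of that miRNA. The mature miRNA is shown first, from RefSeq, with bases 2 to 8, the seed, in capitals. It lies on the minus strand at chr19:45639049-45639070 (GRCh38.p14). The matching word CCCAGAG, in capitals below, was found once each in the annotated 3′ UTRs of 2 of the 9 members, TGFA (chr2:70450840-70450862, minus strand, transcript TGFA-201) and ERRFI1 (chr1:8013732-8013754, minus strand, transcript ERRFI1-202), from GENCODE 29 on GRCh38.
miR-330-5p: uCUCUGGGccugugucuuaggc
TGFA: ctgaagagCCCAGAGgaggagtt
ERRFI1: aggttcccCCCAGAGttcccata
The word starts at base 5 of the TGFA 3′ UTR and at base 1524 of the ERRFI1 one. The first bases shown for TGFA therefore lie before its 3′ UTR. The same word occurred in 18.65% of the 19146 genes with an annotated 3′ UTR, so 2 of 9 is a description of letters and not of binding. EGFR held no such word in a 3′ UTR of 6011 nt. Of these members only EREG passed the test under both siRNAs against siControl, and its 3′ UTR of 3943 nt held none.

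EREG and AREG are neighbours on the plus strand of chromosome 4, EREG at 74365143-74388751 and AREG at 74445134-74455009, with 56382 nt between them. Their promoters are shown in part because the 2 genes lie side by side and gave different values under the siRNAs. The stretches come from RefSeq windows reaching from 250 bases before to 50 bases after the annotated start (GRCh38.p14), of which 9 were found for 7 of the members, and ERBB3 and NRG1 had none. Capitals mark the TATA word TATAAA in EREG (chr4:74365102-74365129) and AREG (chr4:74445096-74445123) and the cyclic AMP response word TGACGTCA in AREG (chr4:74445060-74445089), all on the plus strand and each searched on both strands.
EREG TATA: gggctccctagTATAAAgttcgcagcac
AREG TATA: ccggctgagccTATAAAgcggcaggtgc
AREG CRE: cggccgggcctTGACGTCAtgggctgcggc
TATAAA was present in 11.5% of 35116 such windows and TGACGTCA in 1.85%. Among the members with a window, TATAAA was found for EREG, AREG and also EGFR, and TGACGTCA for AREG alone. The AP-1-like word TGANTCA, with any base allowed at N, was in 7.71% of windows. It was present for EGFR and ERBB2 and for no other member with a window. The EGFR matches were TGAGTCA and TGACTCA. The ERBB2 match was TGATTCA, which has neither C nor G at N. In EGFR the matches to TGANTCA and TATAAA lay in a window at an alternative start inside the gene (chr7:55109589-55109888). They did not lie in the window at the gene's first base. These are matches of letters, and binding was not measured.

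Library totals ran from 15373992 to 19912893 counts. Pearson's r of log2 CPM across genes was 0.982 to 0.989 within groups and 0.924 to 0.981 between them, and the replicates of every group differed by more than counting noise. The siRNA2 libraries stood apart in transcript length: the median length per read was 3138 and 3419 nt there, against 2495 to 2734 nt in siControl and 2515 to 2591 nt in siRNA1. The labels call the replicates biological but name no separate cultures or days, so p-values measure the spread between these libraries. Of 20 urothelial and epithelial markers, 13 had a mean under 1 CPM (counts scaled to library size) and 3 were at 0 in all 6 libraries. KRT8 ran from 1109 to 2161 CPM while KRT20 and UPK3A were at 0 and CDH1 stayed at or under 0.287 CPM. Summed over the list, the markers came to 3951 to 5616 CPM in siControl, 4334 to 4662 in siRNA1 and 3132 to 3718 in siRNA2. KRT7, KRT8 and KRT18 made up most of each sum. PPARG was higher under siRNA1 (log2 fold change 0.90, edgeR adjusted p = 0.0264) and siRNA2 (1.13, edgeR adjusted p = 0.0031). KRT7 was lower under siRNA2 (-0.76, edgeR adjusted p = 0.026). No other tested marker of this list passed against siControl. Of 13 blood, endothelial and fibroblast markers 12 had a mean under 1 CPM, CD14 being the exception, and the list summed to 4.07 to 4.16 CPM in siControl, 13.6 to 13.8 in siRNA1 and 4.19 to 4.25 in siRNA2. Of 7 mesenchymal markers 2 had a mean under 1 CPM and 1 was at 0 in all libraries, and the list summed to 728.1 to 898.4 CPM in siControl, 1217 to 1551 in siRNA1 and 634.1 to 784.1 in siRNA2. Within it, FN1 (log2 fold change 1.39) and CDH2 (0.90) were higher under siRNA2 against siControl by edgeR. VIM (-0.39), ZEB1 (-0.44) and ZEB2 (0.42) did not pass there. Under siRNA1 VIM was at 0.82 and missed the threshold (edgeR adjusted p = 0.0691). VIM, at 1173 and 1499 CPM there, made up most of the sum. FN1 went the other way under siRNA1 (-0.52), CDH2 (0.04) and ZEB2 (0.07) changed little and ZEB1 was at 0.65, and none of these passed. The part of any of these in the members' results was not tested.

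In siControl cells all 9 members were expressed. Compared per kilobase of the longest annotated transcript, since longer transcripts collect more reads, ERRFI1 was highest at 42.9 ± 11.7 CPM per kb (SD, n = 2). AREG (16.1), EREG (15.6), EGFR (14.8) and ERBB2 (14.1) followed as a set of neighbours whose libraries overlapped. HBEGF (11.4), TGFA (8.76), ERBB3 (7.22) and NRG1 (5.45) came below them without overlap between neighbours. Under siRNA1, EREG moved to the top with 44.1 ± 13.6 CPM per kb and ERRFI1 lay below it at 25.5 ± 3.62. Under siRNA2, ERRFI1 reached 95.8 ± 0.613 CPM per kb, followed by EREG at 38.2 ± 3.92 and EGFR at 22.7 ± 2.46, and TGFA was last at 10.7 ± 0.519.

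**Figure D1:**
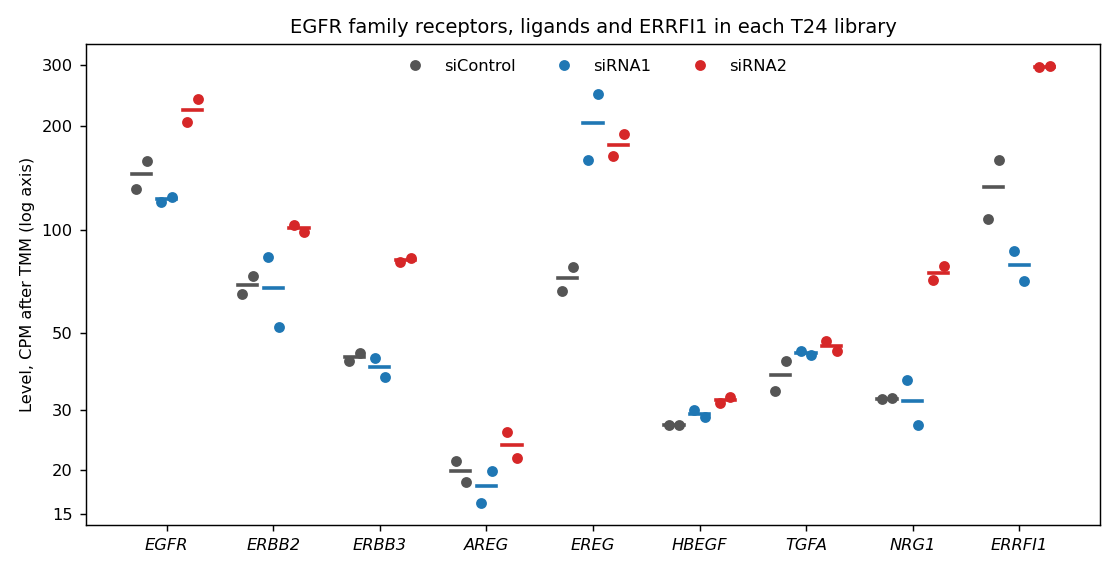
Level of each of the 9 genes in CPM after TMM scaling (vertical log axis shared by all genes), with 1 point per library and a horizontal bar at the mean of each group of 2 libraries. EREG was higher in both siRNA groups than in siControl, while the siRNA2 points of EGFR, ERBB2, ERBB3, AREG, HBEGF, NRG1 and ERRFI1 lay above those of both other groups, by a small margin for AREG and HBEGF.

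Under siRNA1, EREG was the member that rose, and no member passed the test in the lower direction. That 1 of 9 compares with 5.88% of all genes tested that passed in this comparison (2.24% higher and 3.64% lower). The members' median log2 fold change was -0.03, against -0.03 for all genes. Without siControl replicate 1 or siRNA1 replicate 2 the log2 fold change of EREG was 1.38 and 1.14. EREG missed the threshold in both of these fits, which left 1 library in a group, and fewer of all genes passed as well. Under siRNA2, 5 of the 9 members rose: EGFR, ERBB3, EREG, NRG1 and ERRFI1. In that comparison 31.4% of all genes passed, 15.7% being higher and 15.7% lower. Without siControl replicate 1, which left 1 siControl library, fewer of the members and fewer of all genes passed under siRNA2. Over all libraries left out in turn, the lowest log2 fold change was 0.48 for EGFR, 0.89 for ERBB3 and 1.17 for EREG. It was 1.15 for NRG1 and 0.90 for ERRFI1. With all libraries, all 9 members had a positive log2 fold change under siRNA2, with a median of 0.62 against -0.00378 for all genes. For each of them both siRNA2 libraries also lay above both siControl libraries, as they did for 36.4% of genes. Directly between the siRNAs, 4 of the 9, namely EGFR, ERBB3, NRG1 and ERRFI1, were higher under siRNA2, where 39.7% of all genes passed, 21.1% being higher and 18.6% lower. In bulk libraries a change in every cell cannot be told apart from a change in some of the cells. Changes are log2 fold changes from edgeR's quasi-likelihood test, with p-values adjusted by Benjamini-Hochberg over the 14415 genes and a threshold of 0.05.

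Among the receptors, EGFR (ENSG00000146648.17, chromosome 7, 55019021 to 55211628, plus strand) was at 131.5 and 158.3 CPM in siControl, 120.5 and 124.1 in siRNA1 and 205.3 and 239.5 in siRNA2. The siRNA2 libraries lay above all others, and the siRNA1 libraries lay below both siControl libraries. The log2 fold change was 0.62 ± 0.19 (SE) under siRNA2, with an adjusted p of 0.0277 from edgeR. Under siRNA1 it was -0.24 ± 0.19, with an adjusted p of 0.451 and a 95% interval of -0.65 to 0.16. EGFR was 1.82 times as high under siRNA2 as under siRNA1 (edgeR adjusted p = 0.00472). The siRNA2 call was lost without siControl replicate 1 (0.48, edgeR adjusted p = 0.200) and without siRNA2 replicate 2 (0.50, edgeR adjusted p = 0.183).

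EGFR has the longest transcript of the 9, at 9821 nt. When all tested genes were split by transcript length into 10 groups of like size, their median log2 fold change under siRNA2 went from -0.67 in the shortest group to 0.58 in the longest, which holds EGFR. With the trend of length and GC content removed from the counts, the log2 fold change of EGFR under siRNA2 was -0.18 ± 0.12 (edgeR adjusted p = 0.306). The difference between siRNAs then fell to 0.17 ± 0.12 (edgeR adjusted p = 0.301). Under siRNA1 the group medians spanned only -0.12 to 0.07. Length and GC content were removed together, so their separate parts were not tested. Whether the trend arose in the cells or in library preparation was not tested.

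**Figure D2:**
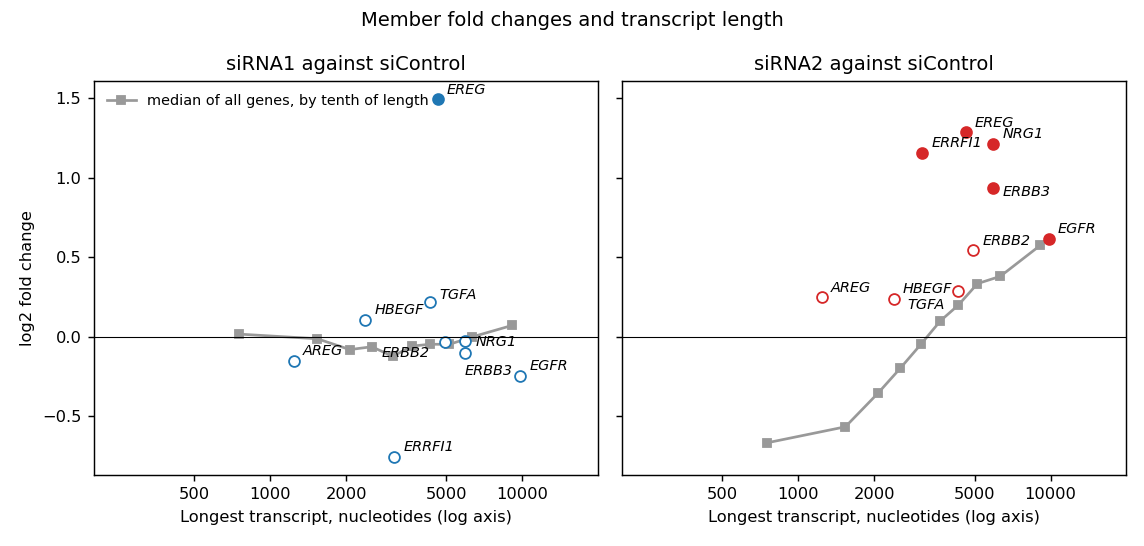
Log2 fold change (vertical axis) against the length of the longest annotated transcript in nucleotides (horizontal log axis), siRNA1 on the left and siRNA2 on the right, each against siControl. Circles are the 9 genes, filled where the edgeR adjusted p was under 0.05, and grey squares join the medians of all genes in 10 groups of length, each placed at its group's median length. Under siRNA2 the grey line climbed from -0.67 to 0.58 and passed close to EGFR. The other genes lay above it, TGFA (0.29 against 0.20) by a small margin, and of these EREG, ERRFI1, NRG1 and ERBB3 passed the test.

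ERBB2 (ENSG00000141736.13, chromosome 17, 39687914 to 39730426, plus strand) did not pass the test in any of the 3 comparisons. Its levels were 65.1 and 73.4 CPM in siControl, 83.4 and 52.2 in siRNA1 and 103.3 and 98.7 in siRNA2. The siRNA1 libraries were spread wider than the siControl ones and overlapped them, while both siRNA2 libraries lay above the rest. The log2 fold change under siRNA2 was 0.54 ± 0.22 with a 95% interval of 0.05 to 1.04 and an edgeR adjusted p of 0.0885. It passed when siRNA2 and siControl were fitted alone (0.54, edgeR adjusted p = 0.0472) and without TMM factors (0.79, edgeR adjusted p = 0.0319). On the opposite strand MIEN1 overlaps ERBB2 exons by 571 nt and PGAP3 by 194 nt, and reads of the overlap could not be told apart by strand. The mean level of MIEN1 was 56.1 CPM in siControl, 54.2 in siRNA1 and 25.5 in siRNA2. PGAP3 was at 21.4, 11.5 and 14.5 CPM in the same order. The part of reads from these genes in the ERBB2 values was not tested.

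ERBB3 (ENSG00000065361.14, chromosome 12, 56076799 to 56103505, plus strand) rose under siRNA2. It measured 41.7 and 43.8 CPM in siControl, 42.4 and 37.3 in siRNA1 and 80.7 and 82.6 in siRNA2. The siControl and siRNA1 libraries overlapped, and the siRNA2 libraries held nearly the same value as each other, far above both. The log2 fold change was 0.93 ± 0.18 under siRNA2 (edgeR adjusted p = 0.00461) and -0.10 ± 0.18 under siRNA1 (edgeR adjusted p = 0.774). With the length and GC trend removed the siRNA2 value was 0.44 ± 0.12, still past the threshold (edgeR adjusted p = 0.0285). Without siControl replicate 1 it was 0.89 and missed the threshold (edgeR adjusted p = 0.0544).

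Among the ligands, NRG1 (ENSG00000157168.18, chromosome 8), the neuregulin that binds ERBB3, showed a pattern like that of its receptor. Its libraries read 32.2 and 32.5 CPM in siControl, 36.5 and 27.1 in siRNA1 and 71.6 and 78.5 in siRNA2. The siRNA1 libraries fell on either side of the siControl ones, and both siRNA2 libraries were at more than any other. The log2 fold change was 1.22 ± 0.20 under siRNA2 (edgeR adjusted p = 0.00307), a fold of 2.32, and -0.03 ± 0.20 under siRNA1 (edgeR adjusted p = 0.957). The siRNA2 call held in all 13 alternatives, and the value was 0.61 ± 0.17 with the length and GC trend removed (edgeR adjusted p = 0.0321). Over the 6 libraries the log2 levels of ERBB3 and NRG1 had a Pearson's r of 0.992, a description of 6 libraries in 3 groups. The likeness was not particular to this pair: ERBB3 had an r of 0.949 with EGFR and 0.945 with ERRFI1, and 0.276 with EREG.

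EREG (ENSG00000124882.3), the epiregulin gene, was the member that rose under both siRNAs. Its siControl libraries read 66.4 and 78.0 CPM, its siRNA1 libraries 159.2 and 248.1 and its siRNA2 libraries 163.4 and 189.0. All 4 siRNA libraries lay above both siControl libraries, and the siRNA1 libraries lay on either side of the siRNA2 ones. EREG was 2.82 times as high under siRNA1 (log2 fold change 1.50 ± 0.23, edgeR adjusted p = 0.0104). Under siRNA2 it was 2.44 times as high (1.29 ± 0.23, edgeR adjusted p = 0.00369). Between the siRNAs the difference was -0.21 ± 0.23 with a 95% interval of -0.71 to 0.29.

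EREG lies in a length group whose median under siRNA2 was 0.20. Removing the trend left log2 fold changes of 1.34 ± 0.18 under siRNA1 and 1.44 ± 0.18 under siRNA2, both past the threshold (edgeR adjusted p = 0.00421 and 0.00355). Against siControl the siRNA1 call was lost without siControl replicate 1 (1.38, edgeR adjusted p = 0.0699) and without siRNA1 replicate 2 (1.14, edgeR adjusted p = 0.146), and the siRNA2 call without siControl replicate 1 (1.17, edgeR adjusted p = 0.0511).

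AREG (ENSG00000109321.10), which codes for amphiregulin, did not follow its neighbour. It was at 21.4 and 18.6 CPM in siControl, 16.1 and 19.9 in siRNA1 and 25.8 and 21.7 in siRNA2. The siRNA1 libraries overlapped siControl, and the siRNA2 libraries lay just above it. The log2 fold change was -0.15 ± 0.23 under siRNA1 and 0.25 ± 0.23 under siRNA2, and neither passed (edgeR adjusted p = 0.733 and 0.439). AREG has the shortest transcript of the members, 1240 nt, in a length group whose median log2 fold change under siRNA2 was -0.57. After removal of the length and GC trend it was higher under siRNA2 than under siRNA1 by 0.70 ± 0.16 (edgeR adjusted p = 0.00889), against 0.40 ± 0.23 before (edgeR adjusted p = 0.190).

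HBEGF (ENSG00000113070.7, chromosome 5, 140332843 to 140346631, minus strand), the heparin-binding ligand, did not pass in any of the 3 comparisons. Its 6 libraries ran from 27.1 CPM, in siControl, to 32.7 CPM, in siRNA2. The log2 fold change was 0.11 ± 0.19 under siRNA1 with a 95% interval of -0.32 to 0.53, and 0.24 ± 0.19 under siRNA2 with an interval of -0.18 to 0.67. TGFA (ENSG00000163235.15, chromosome 2, 70447280 to 70554193, minus strand), which codes for transforming growth factor alpha, read 34.0 and 41.5 CPM in siControl, 44.5 and 43.3 in siRNA1 and 47.6 and 44.5 in siRNA2. Both siRNA groups lay above siControl by less than the test could separate, with log2 fold changes of 0.22 ± 0.19 and 0.29 ± 0.19 (edgeR adjusted p = 0.521 and 0.278). Under siRNA2 the value of TGFA turned to -0.23 ± 0.13 when the length and GC trend was removed (edgeR adjusted p = 0.203). Against siRNA1 it then became -0.39 ± 0.13, past the threshold (edgeR adjusted p = 0.0353).

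ERRFI1 (ENSG00000116285.12, chromosome 1, 8004404 to 8026308, minus strand) differed most between the siRNAs among the 9 genes. Its siControl libraries read 107.6 and 158.8 CPM, its siRNA1 libraries 87.0 and 71.1 and its siRNA2 libraries 296.0 and 298.7. No group overlapped another, with siRNA1 lowest and siRNA2 highest. Under siRNA2 it rose 2.23-fold (log2 fold change 1.16 ± 0.22, edgeR adjusted p = 0.00435). Under siRNA1 the log2 fold change was -0.75 ± 0.22 with a 95% interval of -1.24 to -0.27, which missed the threshold after adjustment (edgeR adjusted p = 0.0661). ERRFI1 was 3.77 times as high under siRNA2 as under siRNA1 (1.91 ± 0.22, edgeR adjusted p = 0.000489).

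The feedback inhibitor was also the member whose siRNA1 value moved most often across the threshold: ERRFI1 was lower there at an adjusted p under 0.05 in 6 of 13 alternatives, among them DESeq2 (adjusted p = 0.0286). Its siRNA2 value was 0.98 ± 0.17 with the length and GC trend removed (edgeR adjusted p = 0.00593), and 0.90 without siControl replicate 1 (edgeR adjusted p = 0.0530). The SD of its 2 libraries was 36.2 CPM in siControl, 11.2 in siRNA1 and 1.90 in siRNA2.

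**Figure D3:**
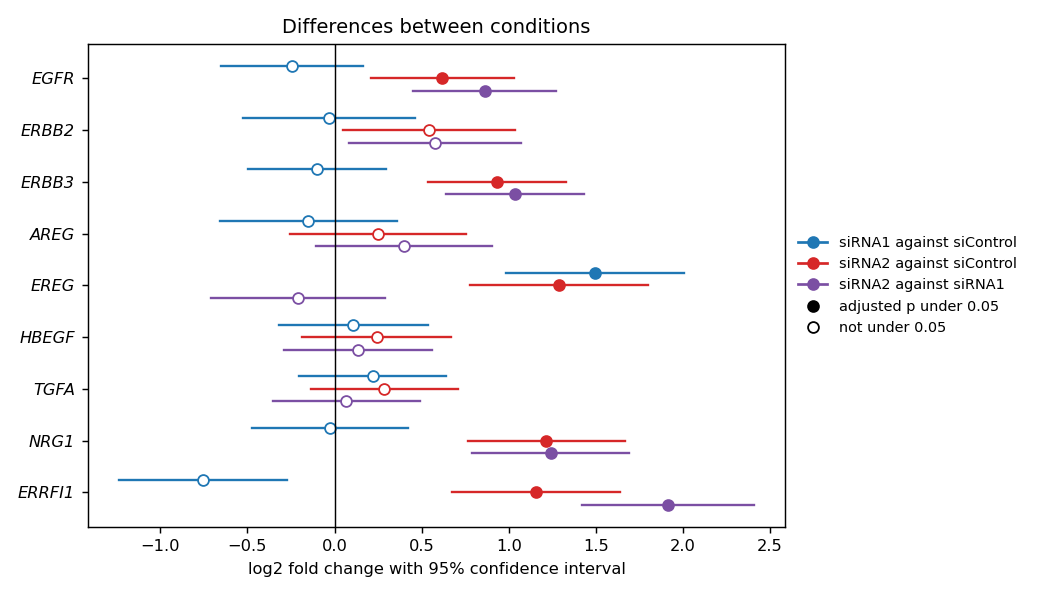
Log2 fold change of each of the 9 genes (horizontal axis) with its 95% interval as a line, for siRNA1 against siControl, siRNA2 against siControl and siRNA2 against siRNA1. Intervals of EREG lay above 0 in both comparisons with siControl, and those of EGFR, ERBB2, ERBB3, NRG1 and ERRFI1 lay above 0 in both comparisons that involve siRNA2, ERBB2 missing the threshold after adjustment in both.

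Over the 6 libraries, EGFR and ERRFI1 had a Pearson's r of 0.971 in log2 CPM, and EREG and ERRFI1 one of 0.0156. The tested genes whose log2 CPM followed that of EGFR most closely, of 10377 with a mean of at least 5 CPM, were LATS1 (r = 0.998), ZSCAN30 (0.997) and CLSPN (0.997). LATS1 read 9.77 and 12.5 CPM in siControl, 7.70 and 8.04 in siRNA1 and 19.9 and 24.5 in siRNA2. For EREG they were SNX18 (r = 0.995), KPNA4 (0.994) and IMPAD1 (0.992). SNX18 read 15.4 and 16.6 CPM in siControl, 25.7 and 32.5 in siRNA1 and 25.1 and 26.1 in siRNA2. These values describe 6 libraries in 3 groups and carry no test.

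The rest of the pathway was read from 5 lists of 75 genes in all. Of the other family receptors and ligands, 2 of 7 were tested. ERBB4, EGF, EPGN, NRG3 and NRG4 were under the count filter, with at most 9 counts in any library. BTC, a ligand of EGFR and ERBB4, stayed between 0.614 and 1.91 CPM. NRG2, a second neuregulin, read 12.5 and 11.8 CPM in siControl, 19.3 and 18.5 in siRNA1 and 12.0 and 10.6 in siRNA2. Its siRNA1 libraries lay above all others, at a log2 fold change of 0.64 ± 0.22 that missed the threshold (edgeR adjusted p = 0.110). Against siRNA1 it was lower under siRNA2 by 0.74 (log2 fold change -0.74 ± 0.22, edgeR adjusted p = 0.0228), which no longer passed without either siRNA1 library, without siRNA2 replicate 2 or without TMM factors.

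Of 10 genes that cut ligands from the membrane or control the cutting, 8 were tested. Under siRNA1 1 was lower and none higher, and under siRNA2 2 were higher and 1 lower, with list medians of -0.32 and -0.10. Of all genes 5.88% and 31.4% passed in these comparisons, so the siRNA2 count was near the share of all genes. ADAM17, the main sheddase of AREG, EREG, HBEGF and TGFA, read 1.12 and 2.63 CPM in siControl, 3.92 and 0.391 in siRNA1 and 12.8 and 14.6 in siRNA2. Both siRNA2 libraries were above the other 4, and the change under siRNA2 was 2.86 ± 0.68 (edgeR adjusted p = 0.0107). ADAM9, another membrane protease, also rose under siRNA2, by 1.92 ± 0.50 (edgeR adjusted p = 0.0154). ADAM15 fell by 0.60 there (log2 fold change -0.60 ± 0.21, edgeR adjusted p = 0.0482), a call that held in 5 of 13 alternatives. ADAM10, the sheddase best known for EGF and BTC, did not pass in either comparison (0.28 ± 0.29 and -0.39 ± 0.29). FRMD8, which stabilizes the iRhom partners of ADAM17, read 189.2 and 232.9 CPM in siControl, 126.7 and 94.2 in siRNA1 and 187.0 and 178.4 in siRNA2. FRMD8 fell under siRNA1 (-0.94 ± 0.21, edgeR adjusted p = 0.0287). Without siControl replicate 1, ADAM17, ADAM9, ADAM15 and FRMD8 all missed the threshold, as FRMD8 did without siControl replicate 2 or siRNA1 replicate 2. ADAM17 and ADAM9 also missed it with robust quasi-likelihood fitting, and ADAM9 with DESeq2.

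Of 22 adaptors, kinases and factors that act directly at the receptor, 21 were tested, and under siRNA2 10 of them rose and none fell, where 31.4% of all genes passed and 15.7% were higher. The list's median was 0.61 there and 0.06 under siRNA1, where 1 gene fell and none rose, against 5.88% of all genes passing. Apart from NCK1 and NCK2, the tested genes had transcripts of at least 3481 nt. Medians of all genes in those length groups were 0.10 to 0.58 under siRNA2. STAT3, a transcription factor that receptors activate, read 71.0 and 84.8 CPM in siControl, 101.6 and 88.0 in siRNA1 and 182.0 and 170.0 in siRNA2, a log2 fold change of 1.18 ± 0.18 under siRNA2 (edgeR adjusted p = 0.00261). PTPN11 (SHP2), a phosphatase that passes the signal on to RAS, rose by 1.41 ± 0.22 (edgeR adjusted p = 0.00267), and its docking partner GAB2 by 1.70 ± 0.30 (edgeR adjusted p = 0.00346). CRK, an adaptor, rose by 2.54 ± 0.47 (edgeR adjusted p = 0.00392) from 1.12 and 3.06 CPM in siControl to 9.09 and 15.4 in siRNA2. With the length and GC trend removed all 4 stayed higher, at 0.67, 0.90, 1.32 and 2.13 in that order, and they passed in all 13 alternatives. Without siControl replicate 1, which left 1 siControl library, fewer of the list and fewer of all genes passed under siRNA2. SOS2, which loads RAS with GTP, was the gene that fell under siRNA1 (-1.20 ± 0.27, edgeR adjusted p = 0.0318). SOS2 did not pass without any 1 of the siControl and siRNA1 libraries, where fewer of all genes passed as well. SOS2 was named after its value was seen. GRB2, which carries SOS to the receptor, did not pass in either comparison (0.19 ± 0.18 and 0.16 ± 0.18).

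Of 31 genes that restrain the receptors or carry them through endosomes, 30 were tested. Under siRNA2 7 rose and 1 fell, where 31.4% of all genes passed, 15.7% being higher and 15.7% lower. The list's median was 0.32 there. Under siRNA1 2 fell and none rose, close to the 5.88% of all genes, the median being -0.14. CBL, the ubiquitin ligase that marks EGFR for breakdown, read 31.2 and 45.2 CPM in siControl, 29.6 and 36.6 in siRNA1 and 114.9 and 124.0 in siRNA2. Its log2 fold change under siRNA2 was 1.65 ± 0.22 (edgeR adjusted p = 0.00179), and 0.83 ± 0.16 with the trend removed (edgeR adjusted p = 0.00817). The receptor phosphatase PTPRJ rose by 1.17 ± 0.21 (edgeR adjusted p = 0.00381), a call lost with the trend removed (0.43, edgeR adjusted p = 0.0937). PTPRK, a second receptor phosphatase, rose by 2.90 ± 0.66 (edgeR adjusted p = 0.00886), with siControl libraries at 0.262 and 3.48 CPM, and missed the threshold with robust quasi-likelihood fitting. SH3GL1, an endocytic adaptor, was lower under siRNA2 (-1.32 ± 0.22, edgeR adjusted p = 0.00303). Under siRNA1 the genes that fell were EPN1 (-1.21) and HGS (-1.17), both of the endocytic route and both named after their values were seen. Without siControl replicate 1 fewer of the list passed under both siRNAs, and without siRNA1 replicate 2 fewer passed under siRNA1. Fewer of all genes passed in these fits as well.

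All 5 chaperone genes were tested, and 2 were lower and none higher under siRNA2, with a list median of -0.24 and 31.4% of all genes passing (15.7% lower), while none passed under siRNA1, where edgeR gave 1 gene an unadjusted p under 0.05 and DESeq2 called 1. CDC37, the co-chaperone that brings kinases to HSP90, read 568.7 and 365.3 CPM in siControl, 575.1 and 443.7 in siRNA1 and 241.7 and 192.8 in siRNA2. Its log2 fold change under siRNA2 was -1.10 ± 0.25 (edgeR adjusted p = 0.00915). STUB1 (CHIP), a ubiquitin ligase tied to chaperones that acts on ERBB2, was also lower (-1.16 ± 0.25, edgeR adjusted p = 0.00713). With the length and GC trend removed CDC37 was at -0.48 (edgeR adjusted p = 0.0494) and STUB1 at -0.31 (edgeR adjusted p = 0.193), and without siControl replicate 1 neither passed.

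**Figure D4:**
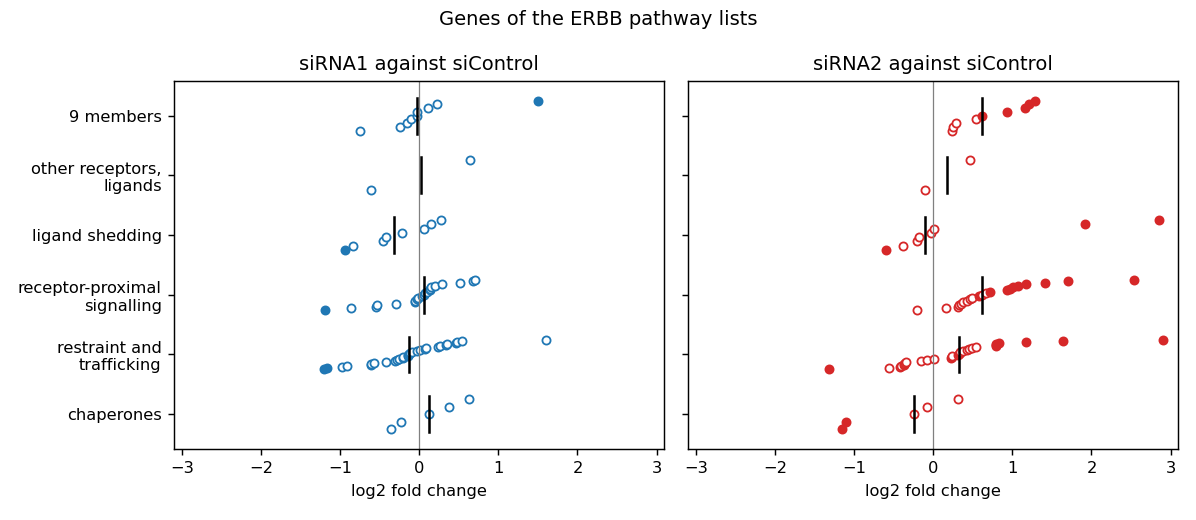
Log2 fold change (horizontal axis) of every tested gene of the 9-gene group and of the 5 pathway lists, siRNA1 against siControl on the left and siRNA2 against siControl on the right. Each circle is 1 gene, filled where the edgeR adjusted p was under 0.05, and the black bar is the list's median. The medians of the 9 genes and of the receptor-proximal list were 0.62 and 0.61 under siRNA2, and -0.03 and 0.06 under siRNA1.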

How the data were processed

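The authors sequenced oligo dT-enriched RNA without strand information and deposited 1 table of raw read counts per gene for 6 T24 libraries. Per the labels' processing notes they used FastQC, cutadapt and STAR with hg38. How reads were assigned to genes, and with which annotation, is not given in the sources used here. Groups came from the sample titles. Tests on the counts used edgeR 4.0.16 under R 4.3.3. Genes were kept with filterByExpr, libraries were scaled by TMM, and all 6 libraries were fitted with 1 mean per group (glmQLFit, glmQLFTest). P-values were adjusted by Benjamini-Hochberg over the 14415 genes tested, with a threshold of 0.05. CPM were scaled by TMM, and correlations used log2(CPM + 2). Gene positions, lengths and 3′ UTRs came from GENCODE 29, to which 99.55% of identifiers matched. To remove the trend of length and GC content, log counts were offset by splines with 5 degrees of freedom per property, fitted in each library. Alternatives included DESeq2 1.42.0, no TMM factors, no filter and leaving out each library. Those for the named pathway genes were added after the data were seen.

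The members and lists were chosen with earlier results of these data known. Named were all 9 members, up to 4 genes per pathway list with the lowest adjusted p among those called against siControl (or the gene of highest level where none was called), and the 3 genes most like EGFR and the highest ligand. Other genes named in the pathway paragraphs (BTC, ADAM10, SOS2, GRB2, EPN1 and HGS) were chosen after their values were seen.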

Additional observations from a re-analysis of the deposited data

Results flagged for a closer look

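Between the siRNAs, 4 genes had a positive effect of siRNA2 and a negative estimate under siRNA1, with a tested difference between the effects. The siRNA2 effect minus the siRNA1 effect on the log2 scale was 0.86 for EGFR, 1.03 for ERBB3, 1.24 for NRG1 and 1.91 for ERRFI1. The siControl libraries drop out of this difference, which is the direct comparison of siRNA2 with siRNA1. None of the 4 passed the threshold in the lower direction under siRNA1 (edgeR adjusted p = 0.451, 0.774, 0.957 and 0.0661), so opposite directions of change were not shown. The libraries of siRNA2 also differed from those of siRNA1 in length composition. With the length and GC trend removed the difference was 0.17 for EGFR, which no longer passed (edgeR adjusted p = 0.301), and 0.51, 0.77 and 1.80 for ERBB3, NRG1 and ERRFI1, which did.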

How the results depend on the processing

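NRG1 under siRNA2 kept its call in all 13 alternatives, as did ERBB3, NRG1 and ERRFI1 between the siRNAs. The count of members called under siRNA1 was 1 and became 2 with DESeq2, without a filter, with the length and GC trend removed and with 2 groups alone, ERRFI1 being the gene added. It ran from 0 to 2 when 1 library was left out, 0 without siControl replicate 1 or siRNA1 replicate 2. The count under siRNA2 was 5, ran from 1 (without siControl replicate 1) to 5 when 1 library was left out, and was 6 without TMM factors, ERBB2 being added. The cause was not tested, and leaving out a library left 1 library in its group. Without siControl replicate 1, fewer of all genes passed against siControl as well, under both siRNAs. Directions turned in 11 cases. Removing the length and GC trend gave -0.18 for EGFR and -0.23 for TGFA under siRNA2, 0.14 for ERBB2 under siRNA1, and 0.10 for EREG and -0.39 for TGFA between siRNAs. Without TMM factors EREG was at 0.14 between siRNAs, and without siRNA1 replicate 2 also at 0.14. Without siControl replicate 2 and without siRNA1 replicate 2, ERBB2 under siRNA1 was at 0.09 and 0.27 and NRG1 at 0.02 and 0.18. Over all libraries left out in turn, these ran from -0.41 to 0.27 for ERBB2, from -0.26 to 0.18 for NRG1 and from -0.49 to 0.14 for EREG between siRNAs. Of these, EGFR under siRNA2 alone had passed, and TGFA between siRNAs passed after the trend was removed. Without TMM factors the median of all genes went to -0.11 under siRNA1, 0.25 under siRNA2 and 0.37 between siRNAs, and the genes called under siRNA2 split 3173 higher and 1294 lower in place of 2270 and 2260.

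Over all genes, siRNA1 called 847 and none without siRNA1 replicate 2 (edgeR, 2110 at an unadjusted p under 0.05; DESeq2 on all libraries called 1519), 1678 without a filter and 1861 with the trend removed. The count under siRNA2 was 4530 and 769 without siControl replicate 1. Pathway list counts under siRNA1 ran from 0 to 4 over the alternatives.

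With the replicate number as a block the members called were 1, 5 and 4 as before. The labels tie equal numbers to nothing shared, and deviations of same-numbered libraries correlated at -0.14 to 0.26. At 15373992 counts or more per library, ERBB4, EGF, EPGN, NRG3 and NRG4 had too few reads to test, and other depths or group sizes were not tried.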
